A study of Mus musculus with 12 samples.

Results

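The genes described here code for 3 families of RNA-binding proteins that choose which exons enter a messenger RNA: the heterogeneous nuclear ribonucleoproteins (hnRNPs), the SR proteins and the muscleblind proteins. They are the rows of the count table whose Entrez identifier mapped to a symbol that begins with Hnrnp, to Srsf followed by a number, or to Mbnl1, Mbnl2 or Mbnl3. This rule was met by 34 of the 27179 genes counted, 20 of them hnRNP, 11 SR and 3 muscleblind genes, and 1 further row named as a pseudogene was left out. The rule itself uses no measured value. The filter on low counts kept 33 of the 34 for testing. The gene left out by it was Srsf12, a relative of Srsf10, with 0 to 49 reads in a library and 0 to 1 CPM (the read count relative to the library total after TMM scaling, which makes libraries of different depth comparable).

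Poly(A)-selected RNA was sequenced from fibroblasts, cells of connective tissue, that had been derived from mouse embryos (C57BL/6, wild type, embryonic day 13.5) and cultured with 10% serum at 3% oxygen. The 4 groups were cells given 10 µM WM-8014 for 240 h, 10 µM WM-2474 for 240 h, 10 µM WM-8014 for 96 h and 10 µM WM-2474 for 96 h. The labels call WM-8014 an inhibitor of the MYST family of histone acetyltransferases and WM-2474 an inactive control, and no cells without a compound were analysed here. Cultures numbered 5, 6 and 7 were sequenced in each group, which gives 12 libraries with n = 3 a group.

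Library totals were 10659860 to 31180476 reads in the WM-8014 240 h group and 19252762 to 23521441 reads in the WM-2474 240 h group. They were 13937538 to 14019263 reads in the WM-8014 96 h group and 10147466 to 45903190 reads in the WM-2474 96 h group. The labels give the sex as female, yet Ddx3y, a gene of the Y chromosome, had 1037 to 4882 reads in the 12 libraries, and Xist, which female cells use for X inactivation, had 0 to 4. All 12 fibroblast markers were measured. They summed to 60100 to 61400 CPM with WM-8014 and 55600 to 58300 CPM with WM-2474 at 240 h. At 96 h the sums were 36200 to 40700 CPM with WM-8014 and 33300 to 37200 CPM with WM-2474. Of the 12, 4 were higher with WM-8014, 2 lower and 6 did not pass at 240 h (adjusted p under 0.05, edgeR). Their log2 fold changes ran from -2.29 to 0.75, with a median of 0.01. At 96 h 4 were higher, 0 lower and 8 did not pass, with a range of -1.11 to 0.50. Of all genes tested 21.2% were higher and 21.4% lower at 240 h, and 10.9% and 11.8% at 96 h. The 9 epithelial markers summed to 1.56 to 5.11 CPM in a library. The 11 macrophage and leukocyte markers summed to 9.98 to 11.3 CPM with WM-8014 and 5.1 to 6.59 CPM with WM-2474 at 240 h, and to 9.55 to 12.6 CPM with WM-8014 and 7.45 to 7.99 CPM with WM-2474 at 96 h. The 9 endothelial markers summed to 42.8 to 47.7 CPM with WM-8014 and 75.6 to 101 CPM with WM-2474 at 240 h, and to 31.7 to 34.8 CPM with WM-8014 and 42.9 to 50 CPM with WM-2474 at 96 h. Of these 9, 5 were tested. With WM-8014 against WM-2474 at 240 h 2 fell, 0 rose and 3 did not pass, against 21.4% lower and 21.2% higher over all genes. From 96 to 240 h 4 fell and 1 rose under each compound, although the sums were higher at 240 h. Of all genes 25.0% fell with time and 24.8% rose with WM-8014, and 19.1% and 19.8% with WM-2474. The 9 neuron and glia markers summed to 62.8 to 73.6 CPM with WM-8014 and 74.3 to 92.3 CPM with WM-2474 at 240 h, and to 67.3 to 69.8 CPM with WM-8014 and 67 to 77 CPM with WM-2474 at 96 h. The 9 skeletal muscle markers summed to 500 to 720 CPM with WM-8014 and 262 to 347 CPM with WM-2474 at 240 h, and to 155 to 184 CPM with WM-8014 and 138 to 151 CPM with WM-2474 at 96 h. Of that list Myod1, Myf5 and Ckm were at 0 reads in all WM-8014 240 h libraries. The part of any of these lists in the results that follow was not tested. In bulk RNA, fewer cells of a type and less RNA per cell cannot be told apart.

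An hnRNP coats new transcripts and often keeps an exon out, and an SR protein binds within an exon and often recruits the splicing machinery to it, so the levels of both families set the outcome of many alternative exons. Muscleblind proteins favour the splice forms of differentiated tissue, and their sequestration on repeat RNA underlies myotonic dystrophy. Many SR and hnRNP proteins limit their own amount by splicing a poison exon into their transcript, which sends it to nonsense-mediated decay. In the GENCODE M21 annotation a decay-targeted transcript is listed for 9 of the 11 SR genes (81.8%), 10 of the 20 hnRNP genes (50.0%) and 0 of the 3 muscleblind genes, against 3631 of 12842 protein-coding genes tested (28.3%). The counts are per gene, so these transcripts are not separated from the coding ones.

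Promoters were read from RefSeq on build GRCm38.p6, which matched 32 of the 34 genes and gave 45 windows of 300 bases around their starts. Hnrnpll and Hnrnpul2 had no entry. Shown here, as examples picked with their values known, are the windows of Mbnl1 and Srsf5, which rose, and of Hnrnpd, Srsf7 and Srsf1, which fell, each from 150 bases before to 30 bases after a start, 5′ to 3′ on the gene's strand. Capitals mark matches, on either strand, to any of 6 motifs. These are the CCAAT box with the letters of its name, and the ETS family motif, searched as CCGGAAG. The NRF1 motif was searched as GCATGCGC. The TATA box was searched as TATAAA. For the E-box the letters were CACGTG. For E2F they were GCGGGAA. Overlapping TATA box matches on both strands run together in 1 window of Mbnl1. A match of a 300-base window that lies outside the printed stretch is not shown.
Mbnl1, start 1 (chr3:60472680-60472859, plus strand): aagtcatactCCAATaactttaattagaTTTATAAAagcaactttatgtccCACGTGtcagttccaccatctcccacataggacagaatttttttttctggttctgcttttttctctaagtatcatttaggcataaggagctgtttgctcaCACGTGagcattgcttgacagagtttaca
Mbnl1, start 2 (chr3:60501029-60501208, plus strand): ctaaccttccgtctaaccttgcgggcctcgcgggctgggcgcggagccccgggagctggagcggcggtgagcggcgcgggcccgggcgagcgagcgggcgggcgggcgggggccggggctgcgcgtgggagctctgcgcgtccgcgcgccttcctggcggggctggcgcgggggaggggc
Hnrnpd (chr5:99978909-99979088, minus strand): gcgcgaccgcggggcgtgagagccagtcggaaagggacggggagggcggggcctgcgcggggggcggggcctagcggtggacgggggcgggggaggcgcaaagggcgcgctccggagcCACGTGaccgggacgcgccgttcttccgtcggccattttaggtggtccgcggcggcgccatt
Srsf7 (chr17:80207276-80207455, minus strand): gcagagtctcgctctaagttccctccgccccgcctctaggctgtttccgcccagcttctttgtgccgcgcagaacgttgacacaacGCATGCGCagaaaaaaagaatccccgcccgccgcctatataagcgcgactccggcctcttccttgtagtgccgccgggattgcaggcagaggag
Srsf1 (chr11:88047223-88047402, plus strand): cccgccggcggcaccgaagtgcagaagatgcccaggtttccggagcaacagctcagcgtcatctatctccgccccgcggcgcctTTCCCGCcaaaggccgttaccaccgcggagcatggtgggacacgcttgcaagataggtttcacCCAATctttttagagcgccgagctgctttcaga
Srsf5 (chr12:80945349-80945528, plus strand): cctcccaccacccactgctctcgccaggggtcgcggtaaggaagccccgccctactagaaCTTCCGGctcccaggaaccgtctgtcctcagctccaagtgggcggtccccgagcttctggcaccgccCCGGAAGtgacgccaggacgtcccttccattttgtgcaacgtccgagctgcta

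The E2F letters occurred in 11 of the 45 member windows (24.4%) and in 1511 of 32851 windows of all genes (4.6%). The ETS letters occurred in 22.2% of member windows and 8.86% of all windows, and the CCAAT box in 51.1% and 37.4%. NRF1 letters were in 6.67% of member windows and 2.71% of all windows, the E-box in 13.3% and 7.15%, and the TATA box in 11.1% and 13.6%. Median GC content was 67.3% over member windows and 52.7% over all windows, so the windows also differ in base composition, and windows of a gene with several starts can share sequence. In the printed stretches Mbnl1 start 1 held CCAAT box, TATA box and E-box letters and start 2 held none of the 6. Hnrnpd held E-box letters, Srsf7 NRF1 letters and Srsf5 ETS letters. Srsf1 held those of E2F and of the CCAAT box. These shares describe letters, and no binding was measured.

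At 240 h, WM-8014 cells had less RNA of most of these splicing factors and more of Mbnl1 than WM-2474 cells. Of 33 tested, 27 were lower (Benjamini-Hochberg adjusted p under 0.05, edgeR), 3 were higher and 3 did not pass, where 21.4% of all 14136 genes tested were lower and 21.2% higher. The genes that rose were Mbnl1, Mbnl2 and Srsf5. The median log2 fold change of the 33 was -0.32, against 0.01 over all genes tested. With library totals only and no scaling factor the calls over all genes at 240 h were 3909 lower and 2361 higher, against 3031 and 2996 with TMM scaling. The 34 genes together held 0.522 ± 0.0061% of reads in WM-8014 libraries and 0.645 ± 0.0041% in WM-2474 libraries (SD, n = 3 each), and the groups did not overlap.

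At 96 h the same comparison gave 19 lower, 1 higher (Mbnl1) and 13 that did not pass, where 11.8% of all genes tested were lower and 10.9% higher. The median log2 fold change was -0.12 over the 33 genes and 0.00 over all genes tested. The 34 genes took 0.707 ± 0.014% of reads in WM-8014 libraries and 0.766 ± 0.0082% in WM-2474 libraries (SD, n = 3 each), again without overlap. All 19 genes that fell at 96 h also fell at 240 h. The overlap of calls between the times was not counted over all genes tested. Of the 20 calls at 96 h, 7 held in all 23 alternative fits: Hnrnpab, Hnrnpd, Hnrnpdl, Srsf1, Srsf3, Srsf7 and Mbnl1. The count of 20 calls at 96 h was 13, Srsf12 included, without culture 5 in all groups. Over all genes that fit gave 1854 calls, against 3218. Omitting cultures 6 and 7 of WM-2474 at 96 h leaves 1 library in that group. The median log2 fold change at 96 h was then -0.13 over the splicing factors and -0.00 over all genes. By family, 18 of 20 hnRNP genes fell at 240 h and 14 at 96 h, 8 of 10 SR genes tested fell at 240 h and 5 at 96 h, and 1 of 3 muscleblind genes fell at 240 h and 0 at 96 h.

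**Figure D1:**
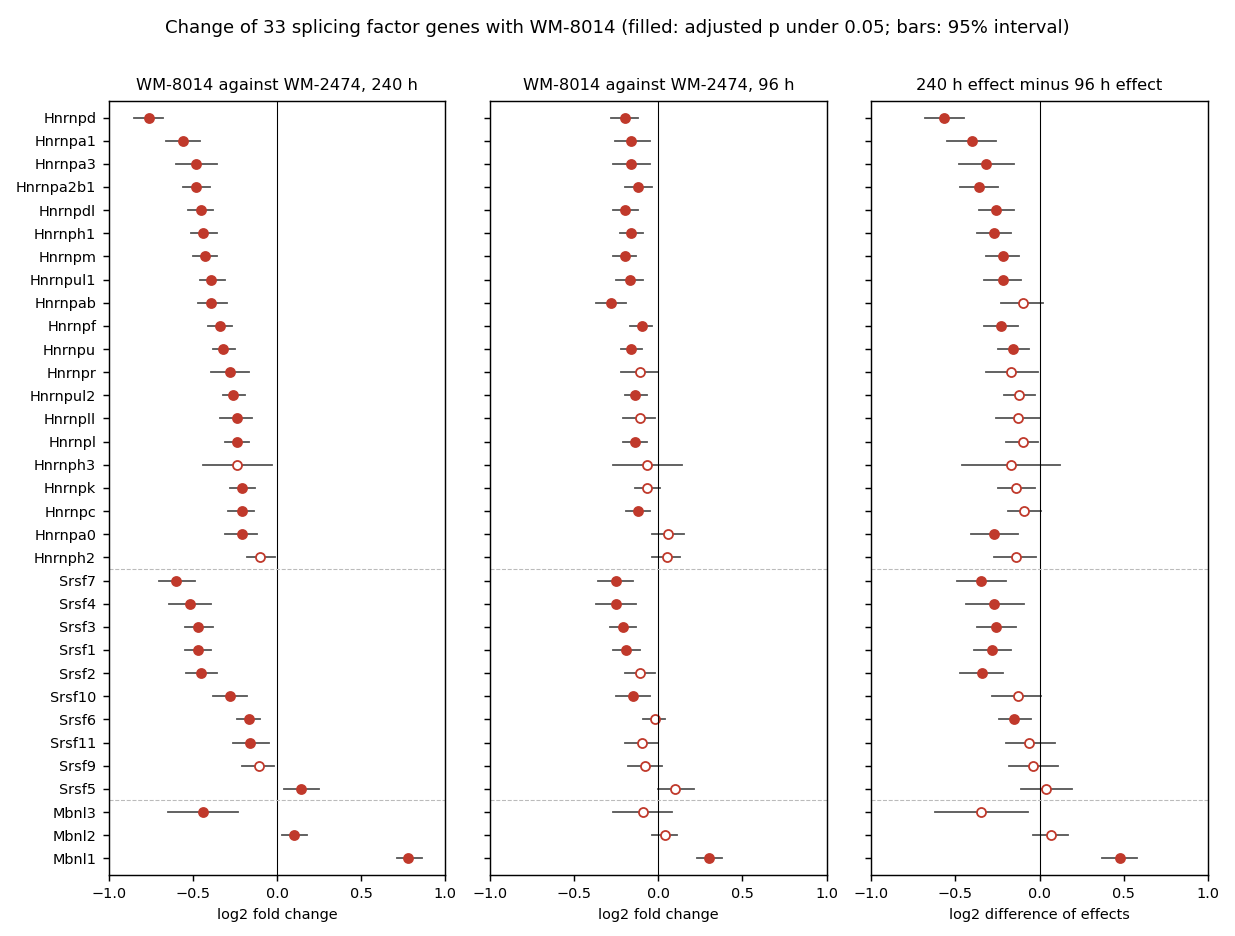
Log2 fold change of the 33 tested genes with WM-8014 against WM-2474 at 240 h (left) and 96 h (middle), and the 240 h effect minus the 96 h effect (right), with 95% intervals; filled points have an adjusted p under 0.05, and dashed lines divide hnRNP, SR and muscleblind genes. At 240 h 30 of the 33 points lie left of 0, and the values run over -0.76 (Hnrnpd) to 0.78 (Mbnl1).

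Per kilobase of the gene length deposited with the counts, the levels of the family spanned a wide range. In WM-2474 96 h cells the highest were Hnrnpab with 208 CPM per kb, Hnrnph1 with 186, Hnrnpu with 173 and Hnrnpa2b1 with 172. The lowest were Srsf12 with 0.24 CPM per kb, Mbnl3 with 2.54, Hnrnph3 with 4.84 and Hnrnpa3 with 8.85. Hnrnpa3 has 27 near copies in the transcript annotation at 95% identity or more over at least 300 bases, 26 of them pseudogenes, and Hnrnpa1 and Hnrnpf have 9 each, so reads of these genes may be split or shared.

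Of the muscleblind genes Mbnl1 rose at both times, Mbnl2 rose by a small amount at 240 h and Mbnl3 fell at 240 h. Mbnl1 (Entrez 56758, chromosome 3, 60472559 to 60629750) is the main muscleblind protein of many tissues. At 240 h it was at 381, 362 and 366 CPM in WM-8014 cultures 5, 6 and 7, against 214, 211 and 219 CPM in WM-2474 cultures. At 96 h it was at 267, 271 and 280 CPM with WM-8014 and 232, 214 and 217 CPM with WM-2474. Every WM-8014 library was above every WM-2474 library of its time. The log2 fold change was 0.78 at 240 h (SE 0.0359, adjusted p = 1.97e-12) and 0.30 at 96 h (SE 0.0363, adjusted p = 6.58e-06). The difference between these effects was 0.48 (SE 0.051, adjusted p = 3.30e-06).

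Mbnl2, a paralogue with splicing roles in brain and muscle, was at 329, 350 and 320 CPM in WM-8014 cultures and 307, 309 and 315 CPM in WM-2474 cultures at 240 h. At 96 h the values were 306, 293 and 296 CPM with WM-8014 and 287, 295 and 289 CPM with WM-2474, and these groups overlapped. The rise at 240 h was 0.10 on the log2 scale (SE 0.0351, adjusted p = 0.0214). At 240 h it did not pass when WM-8014 culture 6 was omitted (adjusted p = 0.181), nor when WM-2474 culture 5 (0.0752) or 6 (0.0591) was, nor with library totals only (0.203). The change at 96 h was 0.04 (95% interval -0.04 to 0.11) and did not pass. Gm26679, an annotated transcript on the other strand, shares exon sequence with Mbnl2, and the strand setting of the counting is not given in the sources used here.

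Mbnl3, the least abundant of the 3 and known from muscle precursor cells, was at 7.77, 8.23 and 7.44 CPM in WM-8014 cultures and 12.4, 10.1 and 9.66 CPM in WM-2474 cultures at 240 h. It was at 20.4, 21.6 and 19.5 CPM with WM-8014 and 21.7, 23.6 and 20.8 CPM with WM-2474 at 96 h. The 240 h groups did not overlap, and the 96 h groups did. The gene fell by 0.44 at 240 h (SE 0.103, adjusted p = 0.0015), and the change of -0.09 at 96 h did not pass (95% interval -0.27 to 0.08). Its difference between 240 and 96 h was larger than that between compounds, and is given with the time comparisons.

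**Figure D2:**
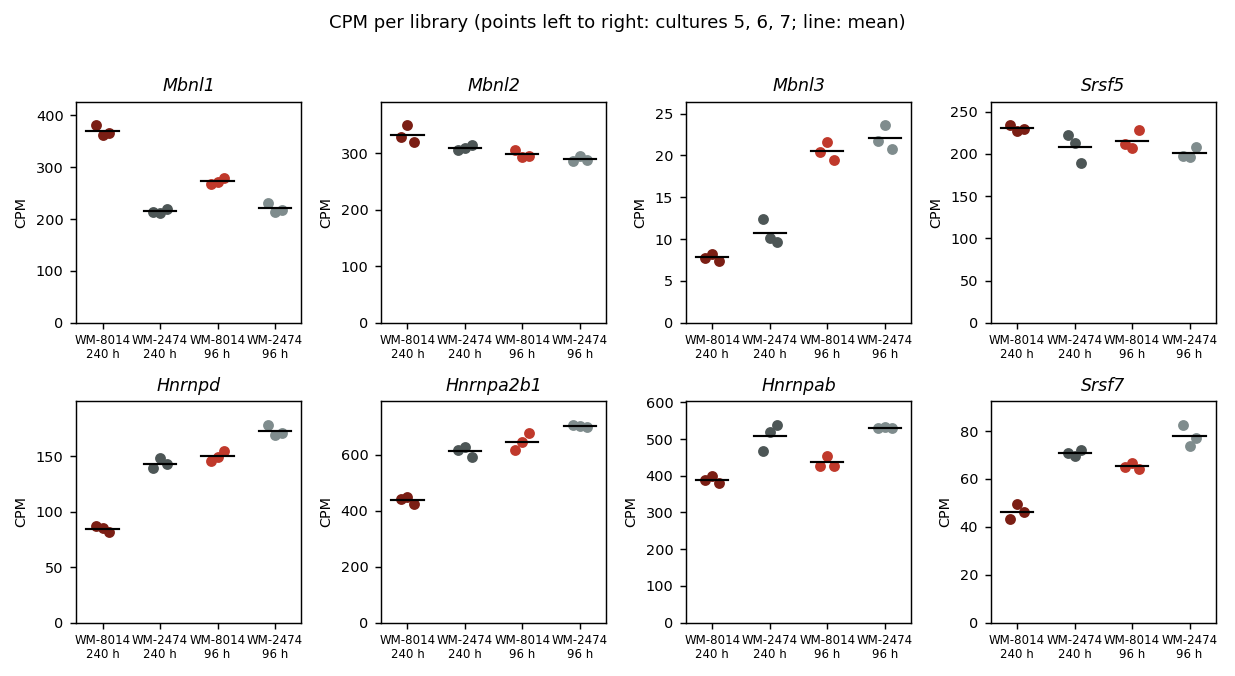
CPM of 8 genes in each of the 12 libraries, with WM-8014 240 h, WM-2474 240 h, WM-8014 96 h and WM-2474 96 h from left to right and a line at each group mean. Mbnl1 averaged 370 CPM with WM-8014 and 215 CPM with WM-2474 at 240 h, while Hnrnpd averaged 84.6 and 143 CPM.

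Among the hnRNP genes, Hnrnpd changed most at 240 h. It codes for AUF1, which binds AU-rich elements and controls messenger RNA decay. Hnrnpd (Entrez 11991, chromosome 5, 99955935 to 99979130) was at 87.1, 85.4 and 81.3 CPM in WM-8014 cultures and 139, 148 and 143 CPM in WM-2474 cultures at 240 h. It was at 146, 149 and 155 CPM with WM-8014 and 178, 169 and 171 CPM with WM-2474 at 96 h. The groups did not overlap at either time. The gene fell by 0.76 at 240 h (SE 0.0399, adjusted p = 6.43e-12) and by 0.20 at 96 h (SE 0.0387, adjusted p = 0.000839). The 240 h level with WM-8014 was 1.7-fold lower than with WM-2474. Gm17092 on the opposite strand shares exon sequence with Hnrnpd.

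Hnrnpdl, a close relative of Hnrnpd that also binds AU-rich RNA, lies near it on chromosome 5 (100033577 to 100039936). It was at 112, 110 and 108 CPM in WM-8014 cultures and 151, 155 and 144 CPM in WM-2474 cultures at 240 h, and at 151, 156 and 151 CPM with WM-8014 and 176, 172 and 176 CPM with WM-2474 at 96 h. It fell by 0.45 at 240 h (SE 0.0362, adjusted p = 2.13e-09) and by 0.20 at 96 h (SE 0.0358, adjusted p = 0.000462), with no overlap at either time. Hnrnpab, a relative that binds both DNA and RNA, was the hnRNP gene with the largest fall at 96 h. Its levels were 387, 400 and 380 CPM in WM-8014 cultures and 468, 518 and 538 CPM in WM-2474 cultures at 240 h. At 96 h they were 427, 455 and 427 CPM with WM-8014 and 529, 533 and 529 CPM with WM-2474. The groups were apart at both times, and Hnrnpab fell by 0.39 at 240 h (SE 0.0424, adjusted p = 2.32e-07) and by 0.28 at 96 h (SE 0.0425, adjusted p = 7.69e-05). The difference of -0.10 between these effects did not pass (95% interval -0.23 to 0.02). Phykpl on the opposite strand overlaps exons of Hnrnpab.

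The A and B group proteins bind exonic silencers and are among the most abundant proteins of the nucleus. Hnrnpa2b1 (chromosome 6, 51460434 to 51470048), which also carries RNAs to distant parts of the cell, was at 443, 450 and 425 CPM in WM-8014 cultures and 618, 628 and 592 CPM in WM-2474 cultures at 240 h. At 96 h it was at 617, 644 and 678 CPM with WM-8014 and 706, 701 and 699 CPM with WM-2474. It fell by 0.48 at 240 h (SE 0.0373, adjusted p = 1.47e-09), with no overlap. The fall of 0.12 at 96 h (adjusted p = 0.0249) did not pass when any of 5 of its 6 libraries was left out (adjusted p = 0.0577 to 0.15), the exception being WM-8014 culture 7.

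Hnrnpa1, the best known splicing silencer of the family, was at 63.1, 65.1 and 66.4 CPM in WM-8014 cultures and 101, 99.4 and 87.5 CPM in WM-2474 cultures at 240 h. It was at 94.8, 101 and 104 CPM with WM-8014 and 108, 111 and 113 CPM with WM-2474 at 96 h. These values were apart at both times, and the gene fell by 0.56 at 240 h (SE 0.0502, adjusted p = 1.18e-08) and by 0.16 at 96 h (adjusted p = 0.0248). The 96 h call was lost when WM-8014 culture 5 of that time was omitted (adjusted p = 0.135), and when WM-2474 culture 6 (0.0597) or 7 (0.12) was. Hnrnpa3, its close relative, was at 25.2, 26.7 and 26.5 CPM in WM-8014 cultures and 37.1, 38.3 and 34.4 CPM in WM-2474 cultures at 240 h, and at 41.6, 40.4 and 41.9 CPM with WM-8014 and 48.3, 43.9 and 46.5 CPM with WM-2474 at 96 h. It fell by 0.48 at 240 h (SE 0.0563, adjusted p = 5.84e-07) and by 0.16 at 96 h (adjusted p = 0.0327), and the 96 h call was lost without any of 5 of the 6 libraries, all but WM-2474 culture 6 (adjusted p = 0.0546 to 0.122). Hnrnpa0, which binds AU-rich elements, averaged 397 ± 7.6 CPM with WM-8014 and 460 ± 23 CPM with WM-2474 at 240 h and fell by 0.21 (adjusted p = 0.000904), while its change of 0.06 at 96 h did not pass (95% interval -0.04 to 0.15).

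The H and F proteins bind runs of G. Hnrnph1 (chromosome 11, 50375257 to 50386528) was at 241, 249 and 240 CPM in WM-8014 cultures and 339, 336 and 313 CPM in WM-2474 cultures at 240 h, and at 363, 373 and 374 CPM with WM-8014 and 419, 413 and 412 CPM with WM-2474 at 96 h. It fell by 0.44 at 240 h (SE 0.0346, adjusted p = 1.87e-09) and by 0.16 at 96 h (SE 0.0342, adjusted p = 0.0016), and every WM-8014 library lay below every WM-2474 library of its time. Hnrnpf fell by 0.34 at 240 h (adjusted p = 5.47e-08) and by 0.10 at 96 h (adjusted p = 0.0279). That 96 h call was lost when WM-8014 culture 5 (adjusted p = 0.0569) or 6 (0.109) of that time was omitted, and when WM-2474 culture 6 (0.0955) or 7 (0.0642) was. The X-linked Hnrnph2 passed at neither time, with 81.9 ± 4.6 CPM in WM-8014 and 87.9 ± 1.6 CPM in WM-2474 cultures at 240 h (log2 fold change -0.10, 95% interval -0.18 to -0.01, adjusted p = 0.0734). Hnrnph3, at 7.99 to 11.1 CPM in all 12 libraries, also passed at neither time, and its 240 h interval was -0.44 to -0.03. The intervals are for single genes and are not adjusted for the number of tests.

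Hnrnpm, a splicing regulator that binds GU-rich RNA, was at 195, 205 and 198 CPM in WM-8014 cultures and 266, 270 and 268 CPM in WM-2474 cultures at 240 h, and at 279, 291 and 282 CPM with WM-8014 and 316, 333 and 331 CPM with WM-2474 at 96 h. It fell by 0.43 at 240 h (SE 0.0336, adjusted p = 1.81e-09) and by 0.20 at 96 h (SE 0.0333, adjusted p = 0.000183), without overlap. The neighbouring gene listed in the annotation as March2 shares exon sequence with it on the same strand. Hnrnpu (chromosome 1, 178321108 to 178338891), the scaffold attachment factor of chromatin, was at 468, 478 and 475 CPM in WM-8014 cultures and 583, 599 and 586 CPM in WM-2474 cultures at 240 h. At 96 h it was at 559, 568 and 580 CPM with WM-8014 and 622, 642 and 642 CPM with WM-2474. The gene fell by 0.32 at 240 h (SE 0.0312, adjusted p = 4.88e-08) and by 0.16 at 96 h (SE 0.0311, adjusted p = 0.000847), and these groups were apart as well. The 96 h calls of Hnrnpm and Hnrnpu were lost with cultures 6 and 7 of WM-2474 at 96 h omitted (adjusted p = 0.0733 and 0.12).

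The other hnRNP genes were lower by 0.21 to 0.39 on the log2 scale at 240 h. Hnrnpul1 and Hnrnpul2, relatives of Hnrnpu with roles at DNA breaks, fell by 0.39 and 0.26 at 240 h and by 0.17 and 0.14 at 96 h. The 96 h call of Hnrnpul1 was lost without culture 7 in all groups (adjusted p = 0.0719). That of Hnrnpul2 was lost without culture 5 (0.0711) or 6 (0.0648). Hnrnpl, which binds CA repeats, fell by 0.24 at 240 h (adjusted p = 4.81e-06) and by 0.14 at 96 h (adjusted p = 0.00471). Without culture 5 in all groups Hnrnpl did not pass at 96 h (adjusted p = 0.0503). Hnrnpll, its lymphocyte paralogue that controls Ptprc splicing, fell by 0.24 at 240 h (adjusted p = 0.000176) and did not pass at 96 h (95% interval -0.21 to -0.02). Hnrnpc, which binds uridine tracts and packages new transcripts, fell by 0.21 at 240 h (adjusted p = 3.78e-05) and by 0.12 at 96 h (adjusted p = 0.0146). The 96 h call of Hnrnpc was lost without the culture 5 library of WM-8014 (adjusted p = 0.0652) or of WM-2474 (0.0514). Hnrnpk, which binds C-rich sequence, fell by 0.21 at 240 h and Hnrnpr, a relative of Syncrip, by 0.28, and neither passed at 96 h (95% intervals -0.14 to 0.01 and -0.22 to 0.00).

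**Figure D3:**
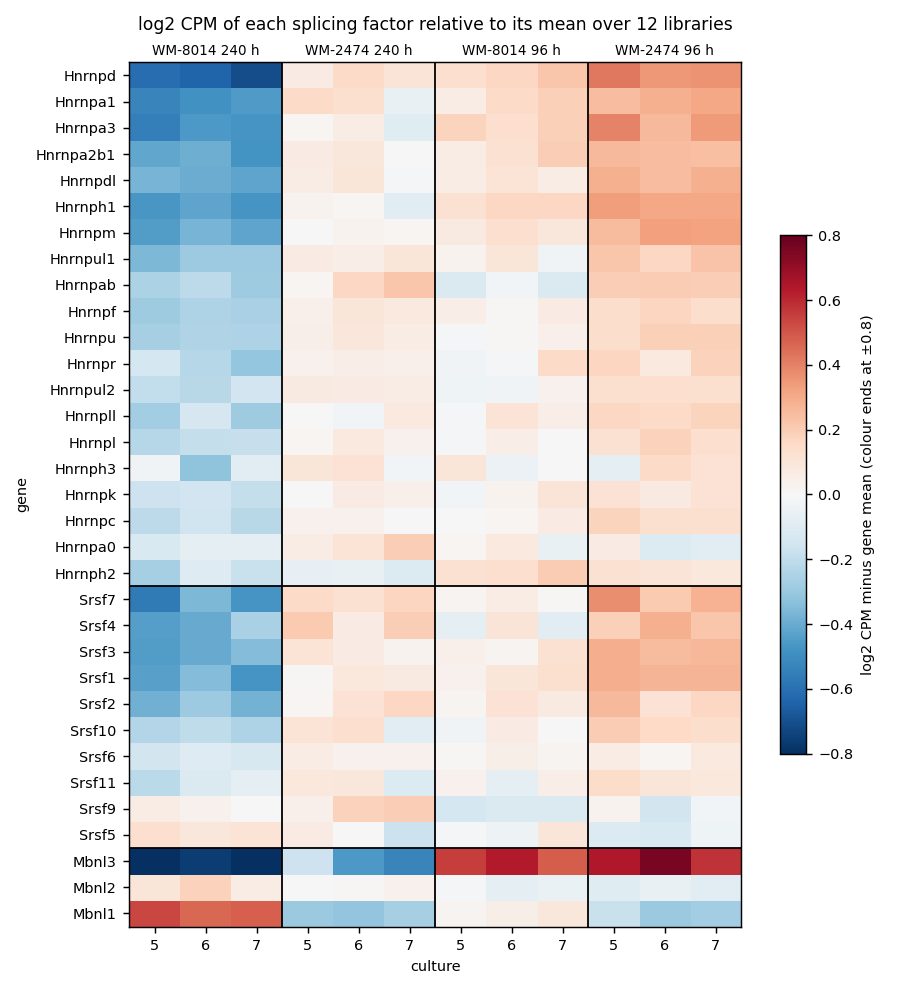
Log2 CPM of each of the 33 tested genes in each library, relative to the gene's mean over all 12, with groups in the order WM-8014 240 h, WM-2474 240 h, WM-8014 96 h and WM-2474 96 h. The WM-8014 240 h columns are low for nearly all hnRNP and SR genes and high for Mbnl1, and Mbnl3 runs past the colour range at its low end.

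Among the SR genes, Srsf7, Srsf4, Srsf3, Srsf1 and Srsf2 fell most and Srsf5 rose. Srsf7, an SR protein with a zinc knuckle that also serves messenger RNA export, was at 43.1, 49.7 and 46 CPM in WM-8014 cultures and 70.8, 69.5 and 71.9 CPM in WM-2474 cultures at 240 h. It was at 64.9, 66.5 and 64.2 CPM with WM-8014 and 82.5, 73.9 and 77.2 CPM with WM-2474 at 96 h. Srsf7 fell by 0.60 at 240 h (SE 0.0503, adjusted p = 4.59e-09) and by 0.25 at 96 h (SE 0.0495, adjusted p = 0.000877), with no overlap. Srsf1, the founding SR protein and an oncogene when in excess, was at 187, 198 and 182 CPM in WM-8014 cultures and 254, 267 and 265 CPM in WM-2474 cultures at 240 h. The 96 h values were 258, 270 and 276 CPM with WM-8014 and 309, 304 and 304 CPM with WM-2474, and the gene fell by 0.47 at 240 h (SE 0.0375, adjusted p = 2.06e-09) and by 0.19 at 96 h (SE 0.0372, adjusted p = 0.00096). Every WM-8014 library was below every WM-2474 library of its time.

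Srsf3, the smallest SR protein, was at 89.8, 92.5 and 96.3 CPM in WM-8014 cultures and 132, 128 and 125 CPM in WM-2474 cultures at 240 h, and at 126, 124 and 133 CPM with WM-8014 and 150, 146 and 147 CPM with WM-2474 at 96 h. It fell by 0.47 at 240 h (SE 0.0393, adjusted p = 4.89e-09) and by 0.21 at 96 h (SE 0.0388, adjusted p = 0.000618), without overlap, and has 4 near copies. Srsf4, one of the longer SR proteins, fell by 0.52 at 240 h (adjusted p = 4.48e-07) and by 0.25 at 96 h (adjusted p = 0.0042). Without culture 7 in all groups Srsf4 did not pass at 96 h (adjusted p = 0.0575). Srsf2, the SC35 protein of nuclear speckles, averaged 198 ± 7.1 CPM with WM-8014 and 271 ± 14 CPM with WM-2474 at 240 h, a fall of 0.45 (adjusted p = 3.29e-08), and its 96 h change of -0.11 did not pass (95% interval -0.20 to -0.02). Mettl23 and Mfsd11 overlap exons of Srsf2 on the other strand.

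Srsf5, known from rat liver cells as an insulin-induced gene, was at 234, 227 and 230 CPM in WM-8014 cultures and 223, 213 and 189 CPM in WM-2474 cultures at 240 h (chosen after its values were seen, as the SR gene that rose). The groups did not overlap, and the rise was 0.14 on the log2 scale (SE 0.0496, adjusted p = 0.0262). The rise did not pass when WM-8014 culture 5 (adjusted p = 0.0783) or 7 (0.0595) of 240 h was omitted, nor when WM-2474 culture 7 was (0.167), nor with library totals only (0.168). At 96 h Srsf5 averaged 216 ± 11 CPM with WM-8014 and 200 ± 6.2 CPM with WM-2474, a change of 0.10 that did not pass (95% interval -0.00 to 0.21).

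Srsf10, a splicing repressor when dephosphorylated in mitosis or heat shock, fell by 0.28 at 240 h (adjusted p = 9.34e-05) and by 0.15 at 96 h (adjusted p = 0.0334), and the 96 h call was lost without any of 5 of the 6 libraries, all but WM-8014 culture 6 (0.0628 to 0.129). Srsf6 fell by 0.17 at 240 h (adjusted p = 0.000182), with a 96 h interval of -0.09 to 0.04. Srsf11 fell by 0.16 at 240 h (adjusted p = 0.0162) in 2 of 3 cultures, with overlapping groups. That call was lost when WM-8014 culture 5 of 240 h was omitted (adjusted p = 0.0795), and when WM-2474 culture 5 (0.0578) or 6 (0.09) was. Srsf9 passed at neither time, and its log2 fold change at 240 h was -0.11 (95% interval -0.21 to -0.02, adjusted p = 0.0587). Srsf12 stayed under the filter, with 0, 0 and 0.0577 CPM in WM-8014 cultures and 0.482, 0.133 and 0.248 CPM in WM-2474 cultures at 240 h, where 3 reads correspond to 0.0962 to 0.281 CPM. At 96 h it was at 0.408, 0.409 and 0.0676 CPM with WM-8014 and 0.464, 0.651 and 1 CPM with WM-2474.

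The compound effect was larger in size at 240 h than at 96 h for many of these genes. The test of the difference between the effects (the compound by time interaction) was passed by 17 genes toward lower and by Mbnl1 toward higher, where 5.53% of all genes tested were lower and 5.15% higher. With library totals only, the calls over all genes were 1059 lower and 519 higher, against 782 and 728. The largest differences toward lower were -0.57 for Hnrnpd (SE 0.0555, adjusted p = 1.44e-06), -0.40 for Hnrnpa1 (adjusted p = 0.000553) and -0.36 for Hnrnpa2b1 (adjusted p = 9.04e-05). The median difference was -0.17 over the 33 genes and -0.00 over all genes tested. The count of 18 was 10 without culture 6 in all groups, a fit that gave 724 calls over all genes, against 1510. Omitting cultures 6 and 7 of WM-2474 at 96 h leaves 1 library in that group. The median difference was then -0.19 over the splicing factors and -0.01 over all genes.

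The levels also moved with time under each compound. These comparisons share libraries with those between the compounds. With WM-8014, 27 genes were lower and 3 higher at 240 h than at 96 h, where 25.0% of all genes tested were lower and 24.8% higher, and the median log2 fold change was -0.27 over the 33 genes and -0.02 over all genes. With WM-2474, 17 were lower and 3 higher, where 19.1% of all genes were lower and 19.8% higher, and the medians were -0.11 and -0.01. Library totals without a scaling factor gave a median over all genes of -0.20 with WM-8014 and -0.16 with WM-2474. They gave 29 lower and 1 higher of the 33 with WM-8014, and 28 lower and 0 higher with WM-2474. Over all genes they gave 6850 lower and 1749 higher with WM-8014, against 3527 and 3504, and 5955 lower and 1365 higher with WM-2474, against 2697 and 2800.

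Mbnl3 had the largest difference with time among the 33 genes under both compounds. It fell to 7.81 ± 0.39 CPM at 240 h, against 20.5 ± 1 CPM at 96 h, with WM-8014 (a log2 difference of -1.38, SE 0.0981, adjusted p = 1.39e-10). With WM-2474 it fell to 10.7 ± 1.5 CPM at 240 h, against 22 ± 1.4 CPM at 96 h (log2 fold change -1.03, SE 0.0884, adjusted p = 6.06e-09). The difference between these changes was -0.35 (95% interval -0.62 to -0.07) and did not pass (adjusted p = 0.106). With time under WM-8014 Mbnl1 rose by 0.44 (SE 0.0359, adjusted p = 1.28e-09), while its change under WM-2474 was -0.04 and did not pass (95% interval -0.11 to 0.04). Mbnl2 was higher at 240 h than at 96 h by 0.16 with WM-8014 and 0.10 with WM-2474, and these differences were -0.02 and -0.05 with library totals only, so their direction rests on the scaling. The WM-2474 value did not pass when culture 6 (adjusted p = 0.0679) or 7 (0.107) of 240 h was omitted, nor when culture 5 (0.0968) or 7 (0.108) of 96 h was.

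Hnrnpd, Hnrnph1, Hnrnpm and Hnrnpa2b1 had the smallest p with time under WM-8014, with log2 fold changes of -0.83, -0.61, -0.51 and -0.56. Under WM-2474 these 4 genes fell by 0.26, 0.33, 0.28 and 0.20, and Hnrnpa3 by 0.34 (adjusted p = 2.52e-05). Omitting cultures 6 and 7 of WM-2474 at 96 h leaves 1 library in that group. The median log2 fold change with time under WM-2474 was then -0.14 over the splicing factors and -0.00 over all genes. In all, 17 genes fell with time under both compounds and 10 fell under WM-8014 and did not pass under WM-2474. Neither set was counted over all genes tested. Of the 17, Hnrnpl, Hnrnpll and Srsf7 lost the WM-2474 call without some single libraries (adjusted p up to 0.08, 0.0675 and 0.141). Hnrnpa1 lost it without culture 7 (0.0549), and Hnrnpc and Hnrnpul1 without culture 5 (0.0838 and 0.0866). Hnrnpu lost it without culture 5, 6 or 7 (0.0576 to 0.0742). With library totals only all 10 passed as lower under WM-2474 as well (adjusted p = 1.35e-05 to 0.00316), so this split rests on the scaling. The Srsf11 call under WM-8014 was lost without any of 4 single libraries (0.0512 to 0.127). Of those 10, the difference between the changes passed for Hnrnpf, Srsf2, Srsf4 and Srsf6. It was lost for Srsf4 without any of 8 of the 12 libraries (adjusted p = 0.0504 to 0.145) and for Srsf6 without any of 11 of them (0.0514 to 0.112). Hnrnpa0 rose by 0.17 under WM-2474 (adjusted p = 0.00698), a call lost with library totals only (adjusted p = 0.665) and when WM-2474 culture 7 at 240 h was omitted (adjusted p = 0.05). That rise was seen in 2 of 3 cultures, and the groups overlapped. Srsf9 rose under both compounds (log2 fold change 0.15 with WM-8014 and 0.19 with WM-2474), and with library totals only neither passed (adjusted p = 0.648 with WM-8014, where the value turned to -0.03, and 0.412 with WM-2474).

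Lists of other genes of the splicing pathway are read against the shares of all genes tested, which were 21.4% lower and 21.2% higher at 240 h and 11.8% lower and 10.9% higher at 96 h. Of 38 proteins of the small nuclear ribonucleoproteins and the core spliceosome, 25 fell and 0 rose at 240 h. At 96 h 5 fell, 0 rose and 33 did not pass, and the share that fell is near the 11.8% of all genes. Those with the smallest p at 240 h were Snrnp40 of the U5 particle, at 23.8 ± 1.7 CPM with WM-8014 and 35.6 ± 0.68 CPM with WM-2474 (log2 fold change -0.56, adjusted p = 1.68e-07), Sf3b3 (-0.31) and Eftud2 (-0.31). At 96 h they were Snrpb, a core Sm protein (-0.21), the helicase Dhx15 (-0.15) and the branch point binding protein Sf1 (-0.13). The median log2 fold change of the list was -0.22 at 240 h and -0.09 at 96 h.

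Of 30 SR protein kinases and SR-related proteins, 17 fell and 2 rose at 240 h, where 21.4% of all genes fell and 21.2% rose. At 96 h 6 fell, 2 rose and 22 did not pass, where 11.8% of all genes fell and 10.9% rose. Tra2b, which activates exons with SR proteins, was at 41 ± 0.77 CPM with WM-8014 and 56.2 ± 1.6 CPM with WM-2474 at 240 h (log2 fold change -0.46, adjusted p = 8.72e-08) and fell by 0.26 at 96 h. The kinase Srpk1, which phosphorylates SR proteins, fell by 0.20 at 96 h (adjusted p = 0.00576). Rnps1 and Pnn, which join the exon junction complex, fell by 0.38 and 0.25 at 240 h. The 2 genes that rose at both times were Rsrc1, an SR-related protein, with 0.25 at 240 h and 0.30 at 96 h on the log2 scale, and the kinase Srpk2, with 0.12 at both (named after its values were seen).

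Of 42 other alternative splicing regulators tested, 29 fell and 2 rose at 240 h, against 21.4% lower and 21.2% higher over all genes. At 96 h 17 fell, 1 rose and 24 did not pass, against 11.8% and 10.9% over all genes. Sfpq, a paraspeckle protein, was at 213 ± 2 CPM with WM-8014 and 301 ± 1.2 CPM with WM-2474 at 240 h (log2 fold change -0.50, adjusted p = 1.20e-10). Khdrbs1 (SAM68) and the polypyrimidine tract protein Ptbp1 fell by 0.41 and 0.38 at 240 h, and Tardbp (TDP-43) fell by 0.21 at 96 h. Rbm38, a p53 target that binds RNA, was at 7.16 ± 0.99 CPM with WM-8014 and 12.9 ± 0.67 CPM with WM-2474 at 96 h (log2 fold change -0.86, adjusted p = 1.21e-05). The genes of this list that rose were Rbms2 at both times and the epithelial regulator Esrp2 at 240 h (log2 fold change 0.66, adjusted p = 0.00715), both named after their values were seen. Esrp2 was low, at 3.44 ± 0.65 CPM with WM-8014 and 2.22 ± 0.54 CPM with WM-2474 at 240 h. Of 17 nonsense-mediated decay and exon junction factors, 8 fell and 0 rose at 240 h (21.4% of all genes fell). At 96 h 4 fell, 0 rose and 13 did not pass (11.8% of all genes fell), which leaves few genes above the share of all genes. Upf1, the helicase of this decay, fell by 0.18 at 240 h (adjusted p = 0.00165) and by 0.16 at 96 h (adjusted p = 0.0115). Rbm8a and Casc3, subunits of the junction complex, fell by 0.28 and 0.22 at 240 h, and Eif4a3 and Smg5 by 0.21 and 0.18 at 96 h.

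Genes of proliferation moved with these results. Their 30 genes summed to 816 to 966 CPM in WM-8014 libraries and 1610 to 1770 CPM in WM-2474 libraries at 240 h, and to 1780 to 1960 CPM with WM-8014 and 2300 to 2390 CPM with WM-2474 at 96 h. At 240 h 29 of the 30 fell and 0 rose, where 21.4% of all genes fell, and at 96 h 27 fell and 0 rose, where 11.8% did. Mki67, the Ki-67 antigen, was at 57.9 ± 4.1 CPM with WM-8014 and 167 ± 7.5 CPM with WM-2474 at 240 h (log2 fold change -1.53, adjusted p = 3.10e-12). The mitotic kinase Plk1 fell by 1.33 and the checkpoint kinase Bub1b by 1.28 at 240 h, and Aurka by 0.45 at 96 h. Their part in the levels of the splicing factors was not tested.

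**Figure D4:**
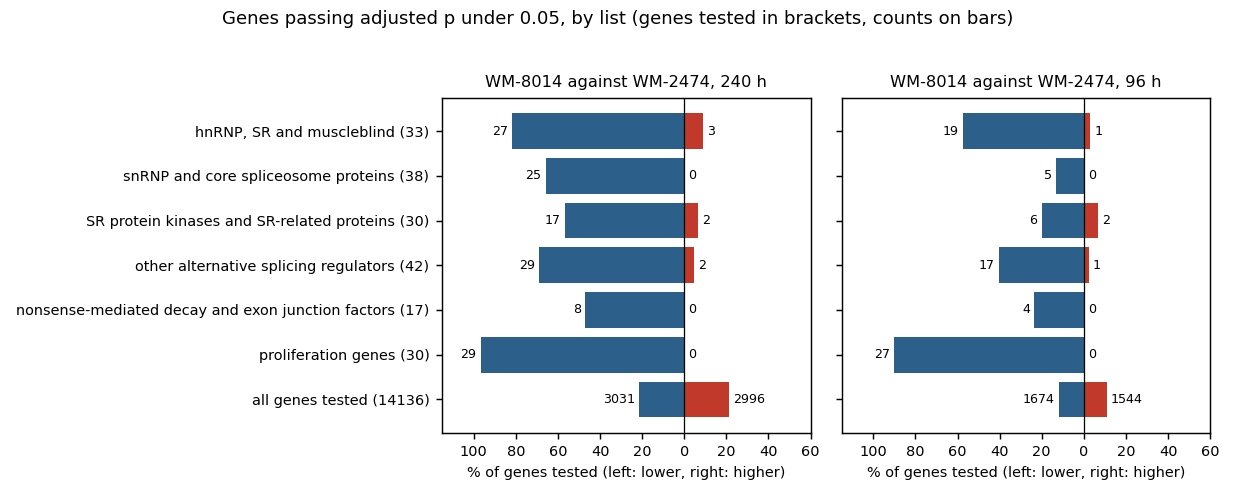
Percentage of tested genes of each list that were lower (bars to the left) or higher (bars to the right) with WM-8014 than with WM-2474 at 240 h (left panel) and 96 h (right panel), with counts on the bars. Of the hnRNP, SR and muscleblind genes 27 were lower and 3 higher at 240 h, where 3031 and 2996 of 14136 genes tested were.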

How the data were processed

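RNA-seq of 12 mouse fibroblast libraries was analysed, with 3 cultures in each of 4 groups. Read counts per gene were deposited by the authors as 1 table with no normalization. Per the submitters' processing notes, featureCounts and build mm10 were used. Aligner, annotation, strand setting and versions: not given in the sources used here. Per the labels' protocols, RNA was taken with RNeasy and libraries were made with a stranded mRNA kit. The gene length column of the deposited table was used for CPM per kb.

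Symbols were found for 25275 of 27179 Entrez identifiers (93%). Genes were kept with filterByExpr, scaled with TMM and fitted with edgeR 4.0.16 (R 4.3.3) as 4 group means over 12 libraries, with robust quasi-likelihood F tests, two-sided, and Benjamini-Hochberg adjustment over the 14136 genes tested. A call is an adjusted p under 0.05. SE is the log2 fold change divided by the square root of F. The common biological coefficient of variation was 4.64%. The fit was tested on simulated counts.

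Library totals were 10147466 to 45903190 reads, and 3 reads correspond to 0.0654 to 0.296 CPM, which covers counting error only. Replicates differed by more than sampling noise (chi-square per degree of freedom 2.1 to 7.13). The labels number the cultures but do not say whether they came from separate embryos, so p-values measure the spread between these cultures.

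Deviations from the group means correlated between the compounds by 0.14, 0.15 and 0.16 for cultures 5, 6 and 7 at 96 h. At 240 h the correlations were 0.064, 0.24 and 0.048. Between the times they were 0.064, 0.19 and 0.082 with WM-8014 and 0.029, 0.1 and 0.074 with WM-2474. Libraries of different culture numbers were not compared in this way, so these values cannot show whether the numbers pair the libraries. The main tests did not pair libraries by culture number, and culture number as a replicate block was an alternative.

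Values in every library are given for the muscleblind genes, the 8 genes with the smallest p between the compounds at each time, the 4 of the interaction and the 5 of each time comparison. From each pathway list up to 3 called genes with the smallest p are named. Members and lists were chosen with earlier results of these data known. Alternatives were DESeq2 1.42.0 and its size factors, no filter on low counts, thinning to the smallest library, fits of the compared groups only, leaving out libraries or cultures, and library totals only, the last chosen after seeing the data. Promoters came from RefSeq tables and near copies from blast 2.17.0 on GENCODE M21 transcripts.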

Additional observations from a re-analysis of the deposited data

Results flagged for a closer look

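The compound effect differed between 240 and 96 h, by the interaction test of the edgeR fit, for 18 of the 33 genes. Values are the log2 effect at 240 h minus that at 96 h. Among the hnRNP genes the difference was -0.57 for Hnrnpd, -0.40 for Hnrnpa1, -0.36 for Hnrnpa2b1, -0.32 for Hnrnpa3, -0.27 for Hnrnph1 and Hnrnpa0, and -0.26 for Hnrnpdl. It was -0.23 for Hnrnpf, -0.22 for Hnrnpm and Hnrnpul1, and -0.16 for Hnrnpu. Among the SR genes it was -0.35 for Srsf7, -0.34 for Srsf2, -0.28 for Srsf1, -0.27 for Srsf4, -0.26 for Srsf3 and -0.15 for Srsf6. Mbnl1 differed in the opposite direction, by 0.48. The calls of Hnrnpu, Srsf4 and Srsf6 were lost in some fits without 1 library, with adjusted p up to 0.0719, 0.145 and 0.112 in that order. Without culture 6 these 3 calls were lost (0.17, 0.181 and 0.263), and so were those of Hnrnpa0 (0.159), Hnrnpul1 (0.144), Hnrnpa3 (0.135), Hnrnpdl (0.1) and Srsf3 (0.0522). Of the 18 calls, 7 held in all 22 alternatives: Hnrnpa1, Hnrnpa2b1, Hnrnpd, Hnrnph1, Hnrnpm, Srsf1 and Mbnl1.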

How the results depend on the processing

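Leaving out 1 library or 1 culture gave 13 to 21 calls among the splicing factors at 96 h (20 with all libraries), 27 to 31 at 240 h (30), 10 to 17 for the interaction (18), 28 to 32 with time under WM-8014 (30) and 14 to 21 with time under WM-2474 (20). Over all genes these fits gave 1750 to 3392 calls at 96 h (3218), 4354 to 6089 at 240 h (6027) and 724 to 1603 for the interaction (1510). With time they gave 5470 to 7119 calls over all genes under WM-8014 (7031) and 3816 to 5585 under WM-2474 (5497). With cultures 6 and 7 of WM-2474 at 96 h omitted, whose lone partner is assumed to vary like the other groups, the splicing factors had 7 calls at 96 h, 9 for the interaction and 11 with time under WM-2474, and all genes had 869, 586 and 2710. Fewer libraries enter these fits by construction, and other causes were not tested. With culture number as a replicate block there were 20 calls at 96 h, 30 at 240 h, 18 for the interaction, 30 with time under WM-8014 and 21 under WM-2474, so the pairing changed no count between the compounds. DESeq2 gave 17 lower and 1 higher at 96 h, 28 and 3 at 240 h, and 15 and 1 for the interaction. The 28 of DESeq2 include Srsf12, which the main fit did not test. Counts of the alternative fits include Srsf12 wherever a fit kept it, so they can cover 34 genes where the main counts cover 33. Fits of the compared groups only give no interaction. Over all members, 7 of 20 calls at 96 h and 27 of 30 at 240 h held in all 23 alternatives. For the interaction 7 of 18 held in all 22. With time 27 of 30 held under WM-8014 and 10 of 20 under WM-2474. Most single genes named by the rule were picked for a small p, and some fits omit only libraries outside a comparison. Their values were therefore likely to hold. Of these, 889 of 914 values kept their direction and side of the threshold, 20 were no longer past it, 1 passed it and 4 turned. Those that turned were Mbnl1 with time under WM-2474 without culture 5 (0.01, range of the fits with libraries left out -0.06 to 0.01), the Mbnl2 interaction without culture 6 (-0.0019, range -0.0019 to 0.10), and Mbnl2 with time with library totals only (-0.02 with WM-8014, -0.05 with WM-2474). Mbnl1 with time under WM-2474 passed with library totals only (-0.18, adjusted p = 0.000403). The cause was not tested. Depth limits Srsf12, with 0 to 49 reads a library.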
